A study of Mus musculus with 45 samples.

Results

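Macrophages were taken from injured muscle of mice and divided by their surface level of MHC class II, and the 2 subsets were compared on day 7 after cardiotoxin, a snake venom toxin that kills muscle fibres and starts a cycle of repair. The comparison held 7 of the 45 arrays of the series: 3 arrays of MHCII+ macrophages (replicates 1, 2 and 3) and 4 arrays of MHCII- macrophages (replicates 1, 2, 3 and 5), chosen by their titles. All 7 came from male C57Bl6 mice of 12 weeks labelled Foxp3.DTR-, muscle injured with cardiotoxin, and cells described as negative for Ly6g and SiglecF and positive for CD11b and the macrophage antigen that Adgre1 encodes. The Foxp3.DTR allele puts the diphtheria toxin receptor under the promoter of Foxp3, the transcription factor of regulatory T cells, so that toxin removes those cells, and Foxp3.DTR- animals do not carry it. The titles give 8 h of diphtheria toxin (DT) for both subsets, and the labels do not say from when the 8 h were counted or whether each array came from a separate animal. P-values therefore measure the spread between arrays of a group, estimated over all 45 arrays unless another fit is named. That spread may be technical.

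MHC class II molecules present peptides to CD4+ T cells. Each is a heterodimer of an alpha and a beta chain, held on its way through the cell by the invariant chain Cd74, loaded with peptide by H2-DM under control of H2-O, and switched on as a set by the co-activator Ciita. Ciita binds no DNA itself but factors that sit on a conserved promoter element with an X box and a Y box, the Y box being an inverted CCAAT box read by NF-Y. In regenerating muscle, macrophages are a mixture of cells derived from blood monocytes and cells that were there before injury, and the level of MHC class II is a common way of dividing them.

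RNA was hybridised to Affymetrix Mouse Gene 1.0 ST arrays, and every value below is log2 of the deposited intensity of a gene unless another scale is named. A gene was tested where its mean in at least 1 of the 18 groups of the series reached 7.57, the median of all values, which left 11074 of 19752 genes. The number of arrays limits the precision: the residual SD within the 2 subsets was 0.17 for a typical gene, against 0.19 over all 45 arrays. Since each sample is a pool of cells, more cells of a type and more RNA per cell cannot be told apart.

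The promoters of the class II genes H2-Aa (an alpha chain) and H2-Eb1 (a beta chain) are shown. Both were among the genes that differed most. Both are on mouse chromosome 17 in the RefSeq annotation of GRCm38.p6, and each window runs from 250 bases before to 50 bases after the gene's start, 5′ to 3′ on the gene's own strand. H2-Aa is at chr17:34287774-34288073 on the minus strand and H2-Eb1 at chr17:34305617-34305916 on the plus strand. Capitals mark matches to letters: the Y box core TGATTGG in both and, in H2-Aa, CATCTG, which is CAGATG read from the other strand. CAGATG was searched for as letters of an X box, and a match to these letters alone does not mark an X box. CATCTG in H2-Aa lies at -232 to -227 from the start, far from the Y box core. It is thus not the X box of the paired element, which was not located here.
H2-Aa: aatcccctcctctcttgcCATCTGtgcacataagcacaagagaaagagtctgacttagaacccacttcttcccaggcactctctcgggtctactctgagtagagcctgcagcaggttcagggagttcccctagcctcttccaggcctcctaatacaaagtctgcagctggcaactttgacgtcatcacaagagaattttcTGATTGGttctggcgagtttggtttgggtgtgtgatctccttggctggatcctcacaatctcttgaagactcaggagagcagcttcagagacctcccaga
H2-Eb1: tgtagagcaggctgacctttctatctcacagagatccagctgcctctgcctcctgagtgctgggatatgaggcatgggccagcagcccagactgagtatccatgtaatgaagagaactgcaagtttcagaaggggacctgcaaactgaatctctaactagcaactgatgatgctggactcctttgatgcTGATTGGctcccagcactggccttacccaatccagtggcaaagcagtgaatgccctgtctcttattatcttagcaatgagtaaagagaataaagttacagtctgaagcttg
The letters TGATTGG, which contain the inverted CCAAT box ATTGG, lay at -50 to -44 from the start of H2-Aa and at -61 to -55 from that of H2-Eb1. Searched on both strands, they were present in 5 of the 8 promoters of the class II list that the table holds, those of H2-Aa, H2-Eb1, H2-Eb2, H2-Oa and H2-Ob, and in 7.82% of all 32851 promoters of this length. The shorter ATTGG was present in 6 of the 8 and in 37.4% of all. Among the genes described next, 9 of 146 promoters of genes higher in MHCII+ macrophages (6.16%) and 7 of 87 promoters of genes lower in them (8.05%) held the Y box core. The letters CAGATG were present in 2 of the 8, those of H2-Aa and H2-Oa, in 25 of those 146 promoters (17.1%) and in 17.2% of all promoters. CAGATG was present in 11.6% of the promoters of all tested genes and in 9.20% of those of the lower genes, and TGATTGG in 9.11% of those of all tested genes. These shares were not tested. No promoter was printed for H2-Ab1, Cd74 or Ciita.

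The arrays bore out the titles. H2-Ab1 was between 13.67 and 14.01 on the 24 arrays titled MHCII+ and between 7.81 and 12.45 on the 21 titled MHCII-, and H2-Aa, H2-Eb1 and Cd74 likewise did not overlap. The labels' separate marker entry names MHCII- for all 7 arrays of this comparison and was not used. The macrophage genes Adgre1, whose product the sort used, and Csf1r, the receptor for the growth factor CSF1, were bright in both subsets: Adgre1 averaged 13.07 ± 0.15 in MHCII+ (SD, n = 3) and 13.04 ± 0.06 in MHCII- macrophages (n = 4), and Csf1r 13.10 to 13.26 in MHCII+ and 13.17 to 13.35 in MHCII- macrophages. In a principal component analysis of the 7 arrays the first component, with 37.1% of the variance, placed MHCII+ arrays between -14.0 and -11.5 and MHCII- arrays between 4.82 and 17.2. The second, with 25.6%, set MHCII- replicate 5 apart at -17.6, against -6.08 to 12.4 for the other arrays, so results that rest on that array are given with and without it.

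Between MHCII+ and MHCII- macrophages, 245 of 11074 genes differed (2.21%, adjusted p under 0.05 in limma). Of these, 150 were higher in MHCII+ macrophages (1.35%), 53 of them at least 2-fold, and 95 were lower (0.858%), 16 of them at least 2-fold. The median difference was 0.80 among the higher genes and -0.66 among the lower ones. At an unadjusted p under 0.05 there were 1048 genes. The 3 MHCII+ values did not overlap the 4 MHCII- values for 148 of the 150 higher and 92 of the 95 lower genes, and the same held for 1357 genes in all (12.3%). In 55 of the higher genes the MHCII- mean lay under 7.57, and in 17 of the lower genes the MHCII+ mean did, so many of the differences run down to dim values, where a fold change on an array is least certain. In 19 called genes both means lay under it. A fit of the 7 arrays alone called 126 higher and 62 lower genes. A paired fit of the same 7 arrays, with the replicate number as a random block, called 534 higher and 585 lower (10.1% of genes), and all 245 were among them. Leaving out single arrays gave 85 to 163 higher and 46 to 94 lower genes, with 85 higher and 48 lower without MHCII+ replicate 2, 46 lower without MHCII+ replicate 1, 52 lower without MHCII+ replicate 3 and 61 lower without MHCII- replicate 1.

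**Figure D1:**
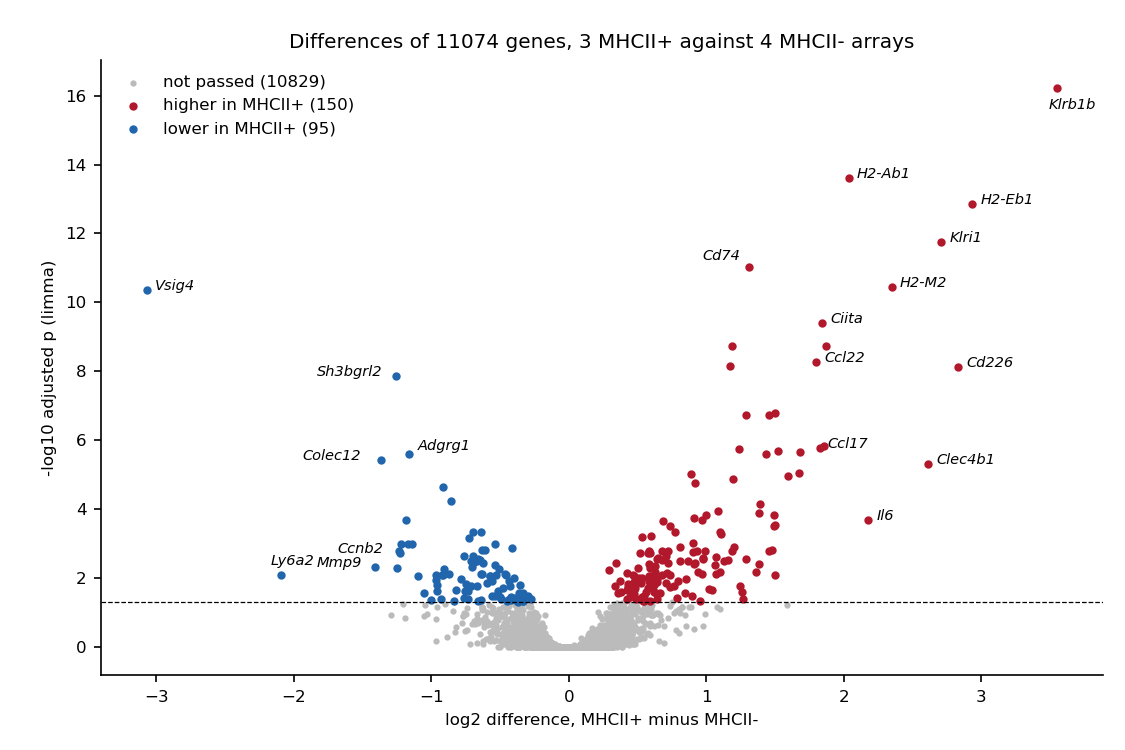
Each point is 1 of 11074 genes, with the log2 difference of MHCII+ minus MHCII- macrophages on the horizontal axis and -log10 of the adjusted limma p on the vertical axis, with a dashed line at 0.05. Coloured points are the 150 higher and 95 lower genes, and Klrb1b (3.55) and Vsig4 (-3.07) mark the ends of the range.

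The sort selected on the MHC class II protein. Of the 10 measured genes of class II presentation, 8 were higher in MHCII+ macrophages and none lower, with 1.35% of all genes called higher. Their median difference was 1.35 against -0.0016 over all genes tested. The beta chain H2-Eb1 had 13.73, 13.69 and 13.70 in MHCII+ and 11.18, 10.77, 10.17 and 10.95 in MHCII- macrophages, a difference of 2.94 ± 0.18 (SE; 7.65-fold, adjusted p = 1.4e-13). The other main beta chain, H2-Ab1, had 13.88, 13.96 and 13.93 in MHCII+ and 12.18, 11.83, 11.49 and 12.05 in MHCII- macrophages (difference 2.03 ± 0.12, adjusted p = 2.5e-14). The MHCII- arrays were thus far from dark for these genes, and the lowest was replicate 3 for both. Ciita, the co-activator, had 10.29, 10.40 and 10.27 in MHCII+ and 8.66, 8.50, 8.27 and 8.48 in MHCII- macrophages, 3.58-fold higher in MHCII+ (difference 1.84 ± 0.16, adjusted p = 3.9e-10). The alpha chain H2-Aa (1.87 ± 0.17), the beta chain H2-Eb2 (1.38 ± 0.22), the invariant chain Cd74 (1.31 ± 0.10), the peptide-loading chain H2-DMa (1.29 ± 0.14) and its inhibitor's chain H2-Ob (1.18 ± 0.11) were also higher. H2-Oa, the other chain of that inhibitor, differed by 0.41 ± 0.11 with an adjusted p of 0.0503, and Ctss, the protease that trims the invariant chain, by 0.08 ± 0.11 with overlapping values. Outside the list, the MHC class I-like gene H2-M2 had 9.62, 9.56 and 9.53 in MHCII+ and 7.31, 7.32, 7.16 and 7.08 in MHCII- macrophages (difference 2.35 ± 0.18, adjusted p = 3.7e-11).

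**Figure D2:**
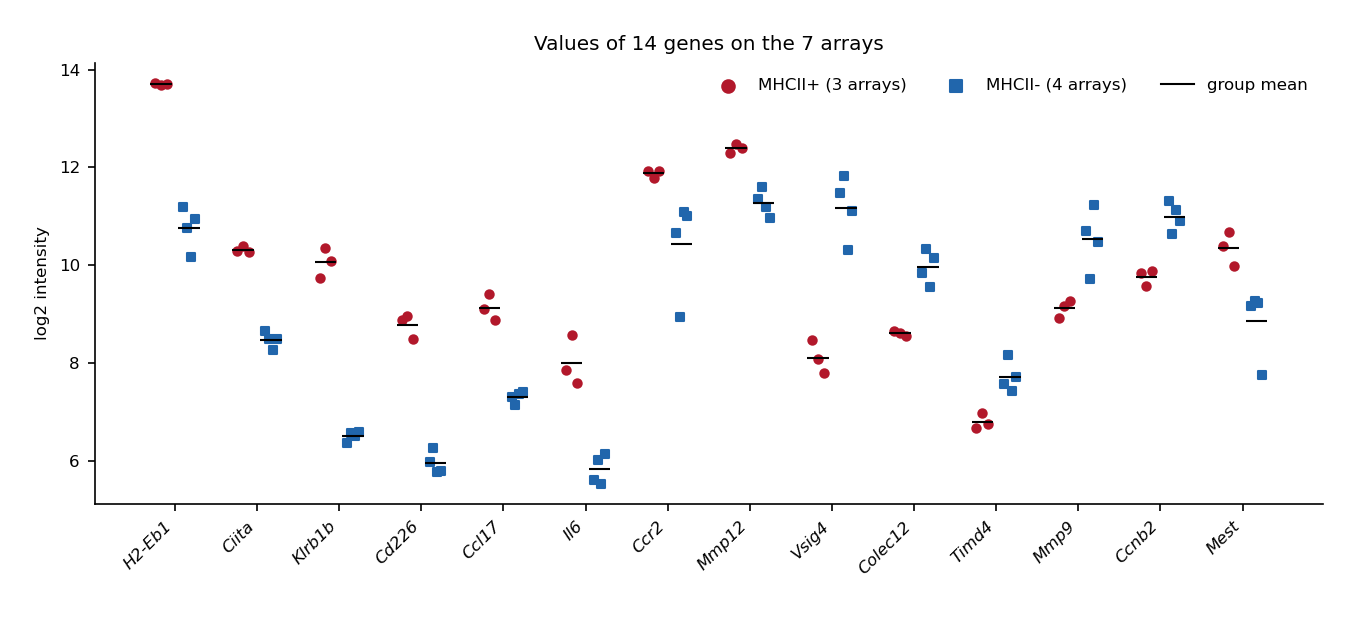
Log2 intensity of 14 genes on each of the 7 arrays, with MHCII+ arrays left of MHCII- arrays, a dot per array and a black line at the mean. H2-Eb1, Ciita, Klrb1b, Cd226, Ccl17, Il6, Ccr2, Mmp12 and Mest were higher in MHCII+ macrophages and Vsig4, Colec12, Timd4, Mmp9 and Ccnb2 lower, and the 2 subsets overlapped in none of the 14.

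The largest difference of all was in a lectin-like receptor best known from natural killer (NK) cells. Klrb1b, an inhibitory receptor of the NKR-P1 family, had 9.74, 10.35 and 10.08 in MHCII+ and 6.36, 6.57, 6.51 and 6.59 in MHCII- macrophages (difference 3.55 ± 0.16, 11.7-fold, adjusted p = 6.0e-17). Its MHCII- values lay close together, and all 3 MHCII+ arrays were well above them. Klri1, another receptor of the same gene cluster, had 7.97, 8.41 and 7.97 in MHCII+ and 5.64, 5.20, 5.46 and 5.32 in MHCII- macrophages (2.71 ± 0.19, 6.54-fold). Cd226, an adhesion receptor that recognises CD155, had 8.87, 8.96 and 8.50 in MHCII+ and 5.98, 6.26, 5.77 and 5.78 in MHCII- macrophages (2.83 ± 0.28, 7.12-fold, adjusted p = 7.3e-09). Klrb1a, an activating relative of Klrb1b, differed by 1.86 ± 0.23, Klrk1, which encodes the activating receptor NKG2D, by 1.59 ± 0.22, and Klra17, an inhibitory receptor of the Ly49 family, by 1.38 ± 0.29 (adjusted p = 0.0040). Both group means of Klrb1a, Klrk1 and Klra17 lay under 7.57, so they were tested only because other groups of the series are brighter.

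Of 16 matched receptors of the NK gene complex and its partners, 9 reached the brightness needed for a test in at least 1 group of the series. Of the 9, 4 (Klrb1b, Cd226, Klrk1 and Klra17) were higher in MHCII+ macrophages, against 1.35% of all genes. Klrb1b, Cd226, Klrk1, Klra17, Klra2 and Klrd1 had their highest group mean in an MHCII+ group among the 4 sets compared further on, so the filter favoured a difference in this direction and the count is a description only. Klra2, an inhibitory Ly49 receptor, differed by 0.89 ± 0.26 (adjusted p = 0.067), and with the replicate number as a block its adjusted p was 0.037. Klrd1, which encodes CD94, differed by 0.78 ± 0.24 (adjusted p = 0.087). None of 11 matched NK cell markers was bright enough to be tested, and their summed linear intensity was 794 to 855 in MHCII+ and 750 to 806 in MHCII- macrophages. Ncr1, the defining receptor of NK cells, was 5.51 to 5.68 in MHCII+ and 5.35 to 5.58 in MHCII- macrophages, near the dim end of the arrays in both.

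Of 20 measured genes that mark conventional dendritic cells, 10 were higher in MHCII+ macrophages and none lower, against 1.35% of all genes called higher. The median difference of the list was 0.70. The list holds Ciita, which switches on class II genes, and the sort selected on the class II protein. The members Clec9a and Flt3 were tested only because other groups of the series are brighter. The count is thus a description only. Ciita and the chemokines Ccl17 and Ccl22 had the largest differences in the list. Clec9a, a receptor for dead cells on cross-presenting dendritic cells, differed by 1.08 ± 0.17 (adjusted p = 0.00011), although both its means lay under 7.57, and Dpp4, the peptidase CD26, by 1.10 ± 0.19. The lectin Cd209a had 11.16, 11.92 and 11.10 in MHCII+ and 9.99, 11.06, 9.40 and 9.97 in MHCII- macrophages (1.29 ± 0.26, adjusted p = 0.0027). In both subsets replicate 2 was highest for Cd209a, and the groups were only just apart. Flt3, the receptor of the dendritic cell growth factor, differed by 0.63 ± 0.15, with both means under 7.57. The transcription factor Irf4 differed by 0.85 ± 0.20, the lectin Mgl2 by 1.04 ± 0.26 and the integrin Itgax, which encodes CD11c, by 0.58 ± 0.14. The lectin Clec4b1, found on dendritic cells, had 8.22, 7.85 and 7.63 in MHCII+ and 5.99, 4.77, 5.29 and 5.11 in MHCII- macrophages (2.61 ± 0.35, 6.11-fold, adjusted p = 5.0e-06).

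Other members of the dendritic cell list overlapped between the subsets or missed the threshold. Zbtb46, the transcription factor that defines conventional dendritic cells, was 7.41 to 7.60 in MHCII+ and 7.53 to 7.84 in MHCII- macrophages. Batf3, which directs cross-presenting dendritic cells, differed by 0.61 ± 0.17 (adjusted p = 0.060), and Ccr7, the receptor that leads them to lymph nodes, by 0.99 ± 0.32 (adjusted p = 0.11), with 1 MHCII+ array at 9.11 and the other two at 8.13 and 8.14. The summed linear intensity of the list was 21669 to 25381 in MHCII+ and 15070 to 18367 in MHCII- macrophages. The part of dendritic cells in the higher genes was not tested. Without MHCII+ replicate 2, the list held 5 higher members, and Flt3 (adjusted p = 0.10), Itgax (0.081), Irf4 (0.057), Mgl2 (0.16) and Cd209a (0.070) lost their calls. Irf4 (0.10) and Mgl2 (0.090) also lost them without MHCII+ replicate 1, and Irf4 (0.069) and Mgl2 (0.12) without MHCII- replicate 3. Itgax lost its call without MHCII+ replicate 3 (0.063), without MHCII- replicate 5 (0.079) and with the replicate block (0.097).

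Among 25 CC and CXC chemokines, 3 were higher in MHCII+ macrophages and none lower, against 1.35% of all genes called higher. The median difference was 0.01. Ccl17, a ligand of CCR4 that draws helper and regulatory T cells, had 9.09, 9.41 and 8.88 in MHCII+ and 7.30, 7.14, 7.36 and 7.41 in MHCII- macrophages (1.82 ± 0.23, 3.54-fold, adjusted p = 1.6e-06). Ccl22, the other CCR4 ligand, had 7.85, 8.05 and 8.42 in MHCII+ and 6.38, 6.16, 6.19 and 6.51 in MHCII- macrophages (1.80 ± 0.17, adjusted p = 5.3e-09). Ccl5, an attractant of T cells and monocytes, differed by 1.19 ± 0.23 (adjusted p = 0.0017). Cxcl9, a ligand of CXCR3 induced by interferon-gamma, was 10.61 to 10.76 in MHCII+ and 8.69 to 10.13 in MHCII- macrophages (1.10 ± 0.33, adjusted p = 0.078). Its lowest value was that of MHCII- replicate 5, and without that array the difference in Cxcl9 was 0.80 (adjusted p = 0.32). Cxcl10 was 11.62 to 12.15 in MHCII+ and 11.30 to 12.32 in MHCII- macrophages. Ccl17 and Ccl22 were also counted in the dendritic cell list, and Ccl17 in that of alternative activation.

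Of 27 inflammatory cytokines and NF-kB targets, 2 were higher in MHCII+ macrophages, Il6 and Ccl5, and none was lower (median 0.03). Of all genes, 1.35% were called higher. Il6 had 7.85, 8.57 and 7.59 in MHCII+ and 5.60, 6.02, 5.52 and 6.14 in MHCII- macrophages, a difference of 2.18 ± 0.36 (4.53-fold, adjusted p = 0.00021). All MHCII- values of Il6 were dim, and the MHCII+ arrays spread over almost 1 log2 unit with replicate 2 the highest. With the replicate block, or without MHCII- replicate 5, 4 members of the list were higher. Tnip3, which restrains NF-kB signalling with A20, had 10.78, 11.09 and 10.96 in MHCII+ and 9.53, 8.21, 9.84 and 9.47 in MHCII- macrophages (1.68 ± 0.21, adjusted p = 2.3e-06). Tnfsf9, the co-stimulatory ligand 4-1BBL, was the only one of 15 co-stimulation and checkpoint ligands to pass (0.90 ± 0.17, adjusted p = 0.0017). Il10, the anti-inflammatory cytokine, was 9.31 to 10.15 in MHCII+ and 9.26 to 10.38 in MHCII- macrophages.

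Of 18 genes of alternative activation, the programme that interleukin 4 induces, 5 were higher in MHCII+ macrophages and none lower. Of all genes, 1.35% were called higher, and the median difference of the list was 0.19. Retnla, the secreted RELM-alpha, had 13.03, 13.29 and 12.93 in MHCII+ and 11.94, 12.43, 11.25 and 12.30 in MHCII- macrophages (1.10 ± 0.24, adjusted p = 0.0065). Socs2, a feedback inhibitor of cytokine signalling, differed by 0.92 ± 0.19, and the other 3 were Ccl17, Irf4 and Mgl2. Some of the best known members of the programme did not pass. Mrc1, the mannose receptor, was 12.11 to 12.37 in MHCII+ and 12.11 to 12.67 in MHCII- macrophages, and Arg1, the arginine-degrading arginase, was 6.98 to 8.10 in MHCII+ and 7.07 to 8.85 in MHCII- macrophages. Chil3, the chitinase-like Ym1, had 6.00, 5.43 and 6.26 in MHCII+ and 7.63, 5.73, 8.08 and 7.32 in MHCII- macrophages, a difference of -1.29 ± 0.42 that did not pass (adjusted p = 0.12). The list held 2 higher members without MHCII+ replicate 2, where Retnla had an adjusted p of 0.071, and 3 without MHCII+ replicate 1 or MHCII- replicate 3. The paired fit of the 7 arrays, which called 10.1% of all genes, called 8 higher and 1 lower.

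Of 22 genes listed for monocytes, 2 were higher in MHCII+ macrophages, Ccr2 and Adgre4, and none lower (median 0.03). Of all genes, 1.35% were called higher. The paired fit of the 7 arrays, which called 10.1% of all genes, gave 6 higher and 2 lower members. Ccr2, the receptor that brings monocytes out of the bone marrow, had 11.93, 11.78 and 11.93 in MHCII+ and 10.66, 8.95, 11.09 and 11.01 in MHCII- macrophages (1.45 ± 0.28, 2.74-fold, adjusted p = 0.0017). MHCII- replicate 2 was lowest for Ccr2 by more than 1 log2 unit, and without it the difference in Ccr2 was 0.96 (adjusted p = 0.0013). The call of Ccr2 was lost in the fits of the 7 arrays alone (0.18) and of the 13 arrays of the 8 h set (0.10). The same array was lowest for Tnip3. Adgre4, a relative of Adgre1, differed by 0.79 ± 0.19 (adjusted p = 0.012) and lost its call without MHCII+ replicate 1 (0.071), MHCII+ replicate 3 (0.075) or MHCII- replicate 2 (0.0504). Dcstamp, needed for the fusion of macrophages and osteoclasts, had 8.39, 8.56 and 8.84 in MHCII+ and 6.92, 6.46, 7.28 and 7.04 in MHCII- macrophages (1.67 ± 0.23, adjusted p = 8.9e-06). F3, tissue factor, which starts coagulation, was higher by 0.63 ± 0.14 (adjusted p = 0.0065, and 0.081 without MHCII+ replicate 2), with both means under 7.57.

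Genes of resident tissue macrophages were lower in MHCII+ macrophages for 5 of 23 measured members, with none higher, a median difference of -0.44, and 0.858% of all genes called lower. Vsig4, a complement receptor that binds C3b and restrains T cells, had 8.46, 8.08 and 7.79 in MHCII+ and 11.48, 11.81, 10.31 and 11.11 in MHCII- macrophages, 8.39-fold lower in MHCII+ (difference -3.07 ± 0.24, adjusted p = 4.5e-11). No other gene was lower by as much. Colec12, a scavenger receptor of the collectin family, had 8.65, 8.62 and 8.55 in MHCII+ and 9.85, 10.33, 9.56 and 10.15 in MHCII- macrophages (-1.36 ± 0.18, adjusted p = 3.7e-06). Timd4, the phosphatidylserine receptor TIM-4 of long-lived resident macrophages, had 6.67, 6.97 and 6.76 in MHCII+ and 7.57, 8.16, 7.42 and 7.71 in MHCII- macrophages (-0.91 ± 0.13, adjusted p = 2.2e-05). The lectin Cd209b differed by -1.10 ± 0.25 (adjusted p = 0.0086) and Fcna, which encodes the complement-activating ficolin A, by -0.92 ± 0.21 (adjusted p = 0.0083).

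The remaining resident macrophage genes mostly lay on the same side of 0 without passing, 2 of the 23 being above 0. Lyve1, the hyaluronan receptor that marks perivascular macrophages, was 11.02 to 11.89 in MHCII+ and 11.60 to 12.83 in MHCII- macrophages (-0.76 ± 0.32, adjusted p = 0.35). Folr2, a folate receptor, differed by -0.28 ± 0.08 (adjusted p = 0.056). Further lectins of the Cd209 cluster had differences of like size: Cd209d differed by -1.05 ± 0.30 (adjusted p = 0.060, and 0.017 with the replicate block), Cd209g by -0.84 ± 0.23 (adjusted p = 0.0505, and 0.039 with the block) and Cd209f, named after its value was seen, by -1.19 ± 0.40 (adjusted p = 0.15). These paralogs are close in sequence, and cross-hybridisation between them was not tested. The list's summed linear intensity was 68123 to 80525 in MHCII+ and 82487 to 114094 in MHCII- macrophages, which did not overlap. The list held 3 lower members without MHCII+ replicate 3, where Cd209b (adjusted p = 0.059) and Fcna (0.061) lost their calls. It held 8 without MHCII- replicate 3 and 16 in the paired fit of the 7 arrays, which called 10.1% of all genes. Cd209b also lost its call without MHCII+ replicate 1 (0.080) or MHCII- replicate 2 (0.055).

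Genes of the complement list lay on both sides, with 9 of 16 measured above 0 and a median of 0.02. In MHCII+ macrophages 3 were lower, Vsig4, C6 and C2. The 2 higher members were the integrin Itgax and F3, which is a coagulation gene and not a complement component. Of all genes, 0.858% were called lower and 1.35% higher. C6, a component of the membrane attack complex, had 6.54, 6.71 and 6.69 in MHCII+ and 7.65, 8.27, 7.49 and 7.92 in MHCII- macrophages (-1.18 ± 0.20, adjusted p = 0.00021). C2, a protease of the classical pathway, differed by -0.70 ± 0.15. Cd59a, which protects cells from the attack complex and was not on the list, had 8.36, 7.58 and 8.00 in MHCII+ and 9.66, 9.15, 9.38 and 8.59 in MHCII- macrophages (-1.22 ± 0.22, adjusted p = 0.0010). The number of higher members rested on single arrays: it was 0 without MHCII+ replicate 2 and 1 without MHCII+ replicate 3 or MHCII- replicate 5.

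Further genes were lower in MHCII+ macrophages, most of them among the largest decreases. Ly6a2 had 6.92, 6.11 and 6.46 in MHCII+ and 9.52, 7.10, 8.92 and 8.82 in MHCII- macrophages (-2.09 ± 0.47, adjusted p = 0.0083), with replicate 2 lowest in both subsets, and its adjusted p was 0.084 without MHCII+ replicate 2 and 0.052 without MHCII- replicate 1. Sh3bgrl2 differed by -1.25 ± 0.13 (adjusted p = 1.3e-08), the aminopeptidase Enpep by -1.25 ± 0.27, Tcim by -1.23 ± 0.24, the serotonin receptor Htr2b by -1.17 ± 0.22, the adhesion receptor Adgrg1 by -1.16 ± 0.15 (adjusted p = 2.6e-06) and Gja1, which encodes a gap junction protein, by -1.14 ± 0.21. S1pr1, the sphingosine-1-phosphate receptor that guides leukocyte exit from tissues, differed by -0.61 ± 0.12, and the transcription factor Tfec by -0.73 ± 0.13 (adjusted p = 0.00069).

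Matrix proteases moved in opposite directions. Mmp12, macrophage elastase, had 12.29, 12.47 and 12.40 in MHCII+ and 11.36, 11.60, 11.19 and 10.97 in MHCII- macrophages (1.11 ± 0.19, 2.16-fold, adjusted p = 0.00052). Mmp9, gelatinase B, had 8.93, 9.16 and 9.26 in MHCII+ and 10.69, 9.71, 11.23 and 10.47 in MHCII- macrophages (-1.41 ± 0.30, 2.66-fold lower in MHCII+, adjusted p = 0.0046). They were the only 2 of 19 metalloproteases and inhibitors to pass. Of 20 growth factors for muscle, vessels and matrix, Pdgfc was the only one that passed (-0.57 ± 0.13, adjusted p = 0.0086), and not without MHCII+ replicate 1 (0.074) or MHCII+ replicate 3 (0.080). Igf1, the growth factor for muscle fibres, was 12.01 to 12.08 in MHCII+ and 12.17 to 12.39 in MHCII- macrophages, a difference of -0.22 ± 0.11 (adjusted p = 0.51). Gdf3, another macrophage factor for muscle repair, was 9.85 to 10.12 in MHCII+ and 9.57 to 10.15 in MHCII- macrophages.

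Of 33 measured cell cycle genes, 7 were lower in MHCII+ macrophages and none higher, against 0.858% of all genes called lower. The median of the list was -0.53. Ccnb2, a mitotic cyclin, had 9.85, 9.57 and 9.88 in MHCII+ and 11.31, 10.63, 11.13 and 10.90 in MHCII- macrophages (-1.23 ± 0.24, adjusted p = 0.0019). Ccna2, the cyclin of S phase and G2, differed by -1.05 ± 0.27, Ube2c, which helps to degrade cyclins, by -0.96 ± 0.23, Plk1, a mitotic kinase, by -0.96 ± 0.24, Kif20a, a motor of cell division, by -0.96 ± 0.23 and Foxm1, a transcription factor for mitotic genes, by -0.60 ± 0.14. Aurka, another mitotic kinase, differed by -0.49 ± 0.13 (adjusted p = 0.041), and Mki67, the proliferation marker, by -0.84 ± 0.26 without passing (adjusted p = 0.089), and both were named after their values were seen. In all, 2 of the 33 members lay above 0. The count rested on single arrays: 3 members passed without MHCII+ replicate 1, 1 without MHCII+ replicate 2, 1 without MHCII- replicate 1, 2 without MHCII- replicate 3 and 12 without MHCII- replicate 2. With the replicate number as fixed terms 10 members passed. In the paired fit of the 7 arrays, which called 10.1% of all genes, 24 did. In the fit of the 13 arrays of the 8 h set alone none did.

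**Figure D3:**
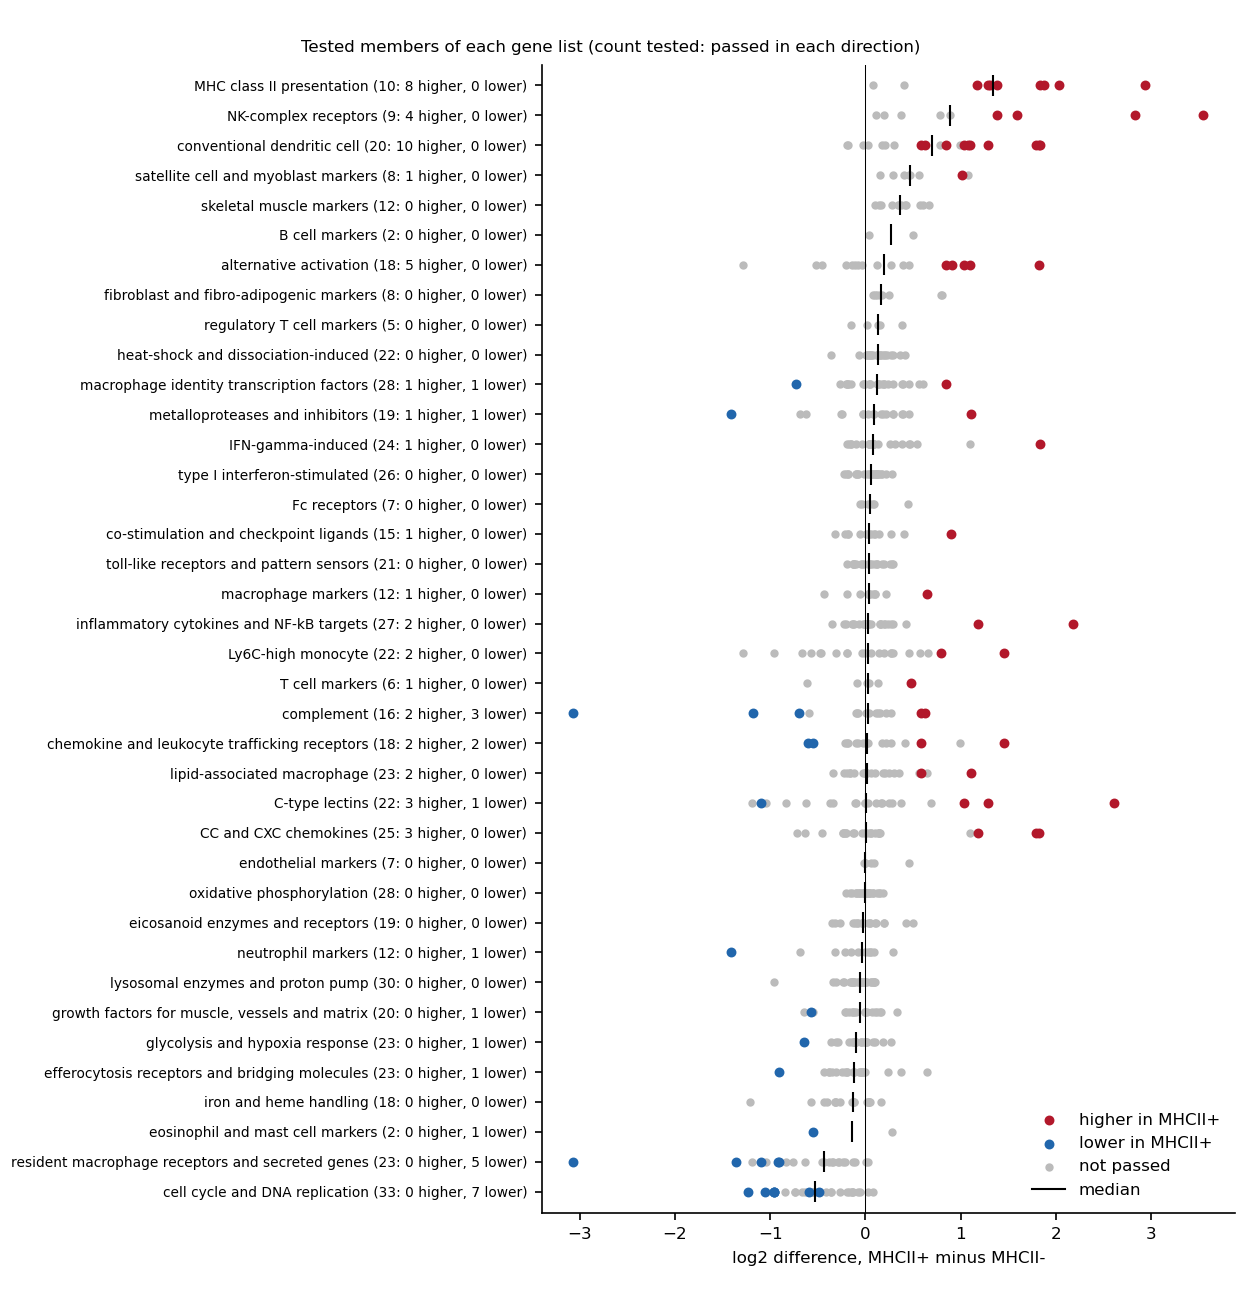
Log2 difference, MHCII+ minus MHCII-, of each tested member of 38 gene lists (a dot per gene, coloured where it passed), with a black line at the list's median, by which the lists are sorted, and the number of members higher and lower beside each name. The class II list is highest at 1.35 with 8 of 10 members higher, and the cell cycle list is lowest at -0.53 with 7 of 33 lower. Of all genes, 1.35% were called higher and 0.858% lower.

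Several programmes that separate macrophage states showed no calls in the reported fit, and others showed some. No member passed among 26 type I interferon-stimulated genes (median 0.06), 18 genes of iron and heme handling (median -0.13), 28 of oxidative phosphorylation, 30 lysosomal genes, 21 toll-like receptors and pattern sensors, 19 eicosanoid genes and 7 Fc receptors. The paired fit of the 7 arrays, which called 10.1% of all genes, called 7 of the 30 lysosomal and 5 of the 18 iron genes lower, 1 interferon-stimulated gene lower, 2 toll-like receptors and sensors and 1 Fc receptor higher, 1 eicosanoid gene higher and 2 lower, and none of oxidative phosphorylation. Slc40a1, the iron exporter ferroportin, was 9.21 to 10.02 in MHCII+ and 10.10 to 11.27 in MHCII- macrophages (-1.21 ± 0.34, adjusted p = 0.055). Among 24 genes induced by interferon-gamma only Ciita passed, and among 23 of efferocytosis only Timd4, with a median of -0.12. The paired fit of the 7 arrays called 6 of the interferon-gamma genes higher and 1 lower, and 2 of the efferocytosis genes higher and 5 lower. Of 23 genes of glycolysis and hypoxia, Bnip3, a mitophagy receptor, was lower by -0.64 ± 0.13 (adjusted p = 0.0029). Of 23 genes of lipid-associated macrophages, Mmp12 and Itgax were higher, while Trem2, the lipid-sensing receptor, was 12.87 to 12.91 in MHCII+ and 12.89 to 13.17 in MHCII- macrophages, and Gpnmb was 13.36 to 13.49 in MHCII+ and 13.53 to 13.64 in MHCII- macrophages. Of 28 transcription factors of macrophages Irf4 was higher and Tfec lower. Of 22 C-type lectins, Clec4b1, Cd209a and Mgl2 were higher and Cd209b lower. Of 18 chemokine and trafficking receptors Ccr2 and Itgax were higher and Ccr3 and S1pr1 lower. For their size, the lectins and the receptors held more calls than all genes, of which 2.21% were called in either direction. That excess was not tested. Lyz1, a lysozyme, was the only one of 12 macrophage markers to pass (0.64 ± 0.15, adjusted p = 0.010), and not without MHCII+ replicate 1 (0.079), MHCII+ replicate 2 (0.076) or MHCII- replicate 2 (0.059).

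Markers of other cell types were measured beside these results. Of 6 tested T cell markers, Il7r, the interleukin 7 receptor, was higher (0.48 ± 0.12, adjusted p = 0.019), and not with the replicate block (0.077) nor without MHCII+ replicate 2 (0.071), MHCII+ replicate 3 (0.18) or MHCII- replicate 5 (0.079). Cd3e, the T cell receptor subunit, was 7.16 to 7.21 in MHCII+ and 7.16 to 7.38 in MHCII- macrophages. Foxp3 was 6.89 to 7.18 in MHCII+ and 7.02 to 7.18 in MHCII- macrophages, Ifng, the T and NK cell cytokine, 6.75 to 7.04 in MHCII+ and 6.91 to 7.08 in MHCII- macrophages, and both were too dim to be tested. The summed linear intensity of 13 T cell markers was 6213 to 6995 in MHCII+ and 5255 to 5979 in MHCII- macrophages. These sums did not overlap between the subsets, but the mean log2 of the same 13 markers did. The median difference of the 6 tested T cell markers was 0.03, with 4 above 0. Il7r was the only one called, and the sum without Il7r was not taken. The 9 B cell markers summed to 2054 to 2810 in MHCII+ and 1660 to 2120 in MHCII- macrophages. No member passed among the tested markers of regulatory T cells (5), B cells (2) and endothelial cells (7). The 15 neutrophil markers summed to 3113 to 3292 in MHCII+ and 3638 to 4916 in MHCII- macrophages. Mmp9 was the only one called, and the sum without Mmp9 was not taken. The median difference of the 12 tested was -0.04, with 5 above 0. The mean log2 of all 15 was 6.69 to 6.74 in MHCII+ and 6.83 to 6.94 in MHCII- macrophages. S100a8, the defining transcript of neutrophils, was 5.73 to 6.18 in MHCII+ and 6.02 to 6.33 in MHCII- macrophages. Ccr3, the eotaxin receptor, was lower (-0.55 ± 0.13, adjusted p = 0.012), with both means under 7.57, and not without MHCII+ replicate 2 (0.22), MHCII- replicate 1 (0.057) or MHCII- replicate 3 (0.061). Siglecf, which the sort used to leave out eosinophils, was 7.80 to 8.00 in MHCII+ and 7.40 to 7.75 in MHCII- macrophages. The part of these cells in the results was not tested.

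Muscle and matrix transcripts were lowest in MHCII- replicate 5. The 16 skeletal muscle markers summed to a linear intensity of 10798 to 12719 in MHCII+ and 6889 to 13535 in MHCII- macrophages, replicate 5 being the 6889. For the 11 fibroblast markers the sums were 6270 to 6636 in MHCII+ macrophages and 3520 in MHCII- replicate 5, against 5172 to 5855 in the other MHCII- arrays. Satellite cell and myoblast markers summed to 2339 to 3122 in MHCII+ and 1598 to 2276 in MHCII- macrophages, again lowest in replicate 5. Of these lists only Chrna1, a subunit of the acetylcholine receptor, passed (1.02 ± 0.25, adjusted p = 0.020), with 8.65, 9.11 and 8.62 in MHCII+ and 8.05, 8.24, 7.70 and 7.11 in MHCII- macrophages. Its adjusted p was 0.11 with the replicate block, 0.052 without MHCII+ replicate 1, 0.19 without MHCII+ replicate 2, 0.054 without MHCII- replicate 3 and 0.12 without MHCII- replicate 5. The heat-shock and dissociation genes summed highest in MHCII- replicate 5, with 94886 to 102259 in MHCII+ macrophages, 111200 in that array and at most 89558 in the other MHCII- arrays.

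Several genes that muscle and connective tissue cells express were higher in MHCII+ macrophages, and were chosen after their values were seen. Mest, an imprinted gene of mesoderm, had 10.38, 10.68 and 9.99 in MHCII+ and 9.17, 9.27, 9.23 and 7.74 in MHCII- macrophages (1.50 ± 0.34, adjusted p = 0.0080). Without MHCII- replicate 5 the difference in Mest was 1.13 (adjusted p = 0.056), without MHCII+ replicate 2 the adjusted p was 0.088, and with the replicate block it was 0.062. Capn6, a calpain-like protein of muscle development, differed by 1.25 ± 0.31, and its adjusted p was 0.017, 0.10 with the block, 0.11 without MHCII- replicate 5, 0.090 without MHCII+ replicate 1 and 0.18 without MHCII+ replicate 2. Igfbp5, which binds insulin-like growth factors, differed by 1.07 ± 0.21 (adjusted p = 0.0024) and Cnn3, a calponin, by 0.97 ± 0.20 (adjusted p = 0.0026), and both kept their calls without any single array and with the block. Sparc, a matrix glycoprotein of the fibroblast list, differed by 0.81 ± 0.26 (adjusted p = 0.10). The part of muscle and matrix cells in these differences was not tested.

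**Figure D4:**
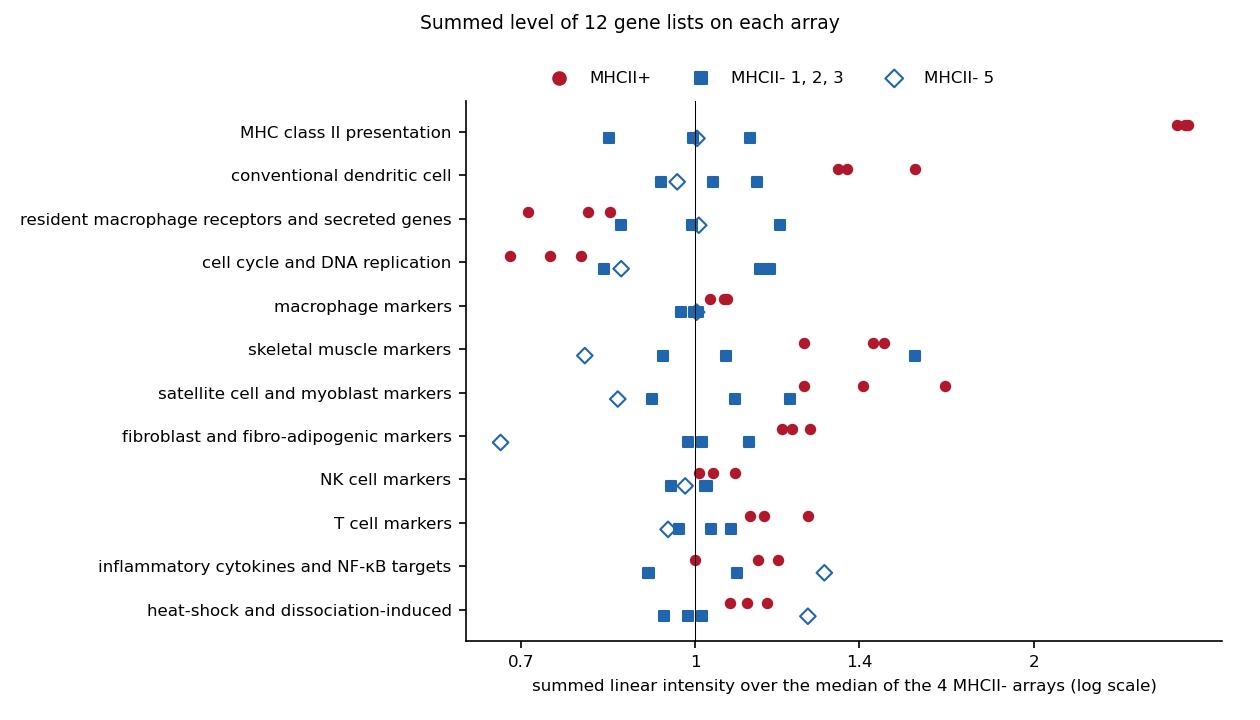
Summed linear intensity of 12 gene lists on each array, divided by the median of the 4 MHCII- arrays, with MHCII+ arrays above MHCII- arrays and MHCII- replicate 5 as an open diamond. The class II sums of the MHCII+ arrays (75608 to 77288) lie far above those of the MHCII- arrays (23591 to 31550), and replicate 5 is lowest for the muscle and fibroblast lists.

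The same MHCII+ and MHCII- subsets were compared in 3 further sets of arrays that share no array with this one. They were Foxp3.DTR- mice with 24 h of DT on day 7 (4 MHCII+ and 3 MHCII- arrays, mice of 8 weeks), Foxp3.DTR+ mice with 8 h of DT on day 7 (3 and 3 arrays, 12 weeks) and uninjured Foxp3.DTR- mice at day 0 (2 and 2 arrays, 10 weeks). SiglecF is not among the markers given for the 24 h and day 0 sets. Of the 150 genes higher in MHCII+ macrophages here, 114 (76.0%) were among the 226 higher ones of the 24 h set (50.4% of those, with 2.04% of all genes higher there), 106 (70.7%) among the 331 of the 8 h DTR+ set (32%; 2.99% of all genes) and 117 (78.0%) among the 935 of day 0 (12.5%; 8.44% of all genes). Of the 95 lower genes, 74 (77.9%) were among the 353 lower ones at 24 h (21.0%; 3.19% of all genes), 64 (67.4%) among the 553 in the 8 h DTR+ set (11.6%; 4.99% of all genes) and 67 (70.5%) among the 1169 at day 0 (5.73%; 10.6% of all genes). In all 4 sets 84 genes were higher and 50 lower. The shares of all tested genes called were 5.23% at 24 h, 7.98% in the 8 h DTR+ set and 19.0% at day 0.

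The difference between subsets was itself compared between sets, as the 8 h DTR- difference minus that of the other set. No gene differed from the 24 h set (384 at an unadjusted p under 0.05) or from the 8 h DTR+ set (856), in limma with adjustment over all genes. The intervals are wide at these numbers of arrays, and this does not show that the sets are alike. Klrb1b, for example, differed between subsets by 3.55 here, 3.96 at 24 h and 4.27 in the 8 h DTR+ set, and Vsig4 by -3.07, -2.97 and -2.70 in the same order. Cd209a differed by 1.29 here, 2.66 at 24 h and 1.50 in the 8 h DTR+ set. Irf4 differed by 0.85 here and 0.81 at 24 h, against -0.09 in the 8 h DTR+ set, and Mgl2 by 1.04 and 0.94, against 0.11, and neither difference between sets passed.

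From day 0, 672 genes differed (6.07%), 310 above 0 (2.80%) and 362 below 0 (3.27%). Among the 245 genes called here 93 differed from day 0, 68 of the higher and 25 of the lower ones, and 14 of the 93 had the opposite sign at day 0. Klrb1b and Klri1 separated the subsets less here than in uninjured muscle: Klrb1b by 3.55 here, against 6.17 at day 0 (difference of differences -2.62 ± 0.27, adjusted p = 8.5e-08) and Klri1 by 2.71 here, against 5.59 at day 0. Ccl17 differed by 1.82 here, against 4.88 at day 0 (-3.06, adjusted p = 1.0e-06), Itgax by 0.58, against 2.99 (-2.41), Ciita by 1.84, against 3.02 (-1.18, adjusted p = 0.0035) and H2-Ab1 by 2.03, against 2.73 (-0.69, adjusted p = 0.025). Vsig4 was lower by less here, with -3.07, against -4.34 at day 0 (1.27, adjusted p = 0.049), and so was Colec12, with -1.36, against -2.49 (1.13, adjusted p = 0.015). H2-M2 went the other way, with 2.35 here, against 1.15 at day 0 (1.20, adjusted p = 0.011).

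Cyclins and other mitotic genes were among those whose sign differed between the sets. Ccnb2 differed by -1.23 here and 0.92 at day 0 (difference of differences -2.15, adjusted p = 0.00055), and Ube2c by -0.96 here and 1.36 at day 0 (-2.32, adjusted p = 9.8e-05). The median of the list was -0.53 here, -0.43 at 24 h, -0.09 in the 8 h DTR+ set and 0.54 at day 0. On the day 0 arrays, transcripts of neutrophils were present in MHCII- cells: S100a8 was 5.93 and 5.99 in day 0 MHCII+ and 7.17 and 11.54 in day 0 MHCII- macrophages, and the median difference of the 12 tested neutrophil markers was -0.04 here and -2.37 at day 0. Their part in the day 0 differences was not tested, and injury, age, DT and the sort markers differ together between these sets and cannot be told apart. Without day 0 MHCII+ replicate 2 the number of genes that differed from day 0 was 232, without day 0 MHCII- replicate 1 it was 403 and without day 0 MHCII- replicate 2 it was 425.

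**Figure D5:**
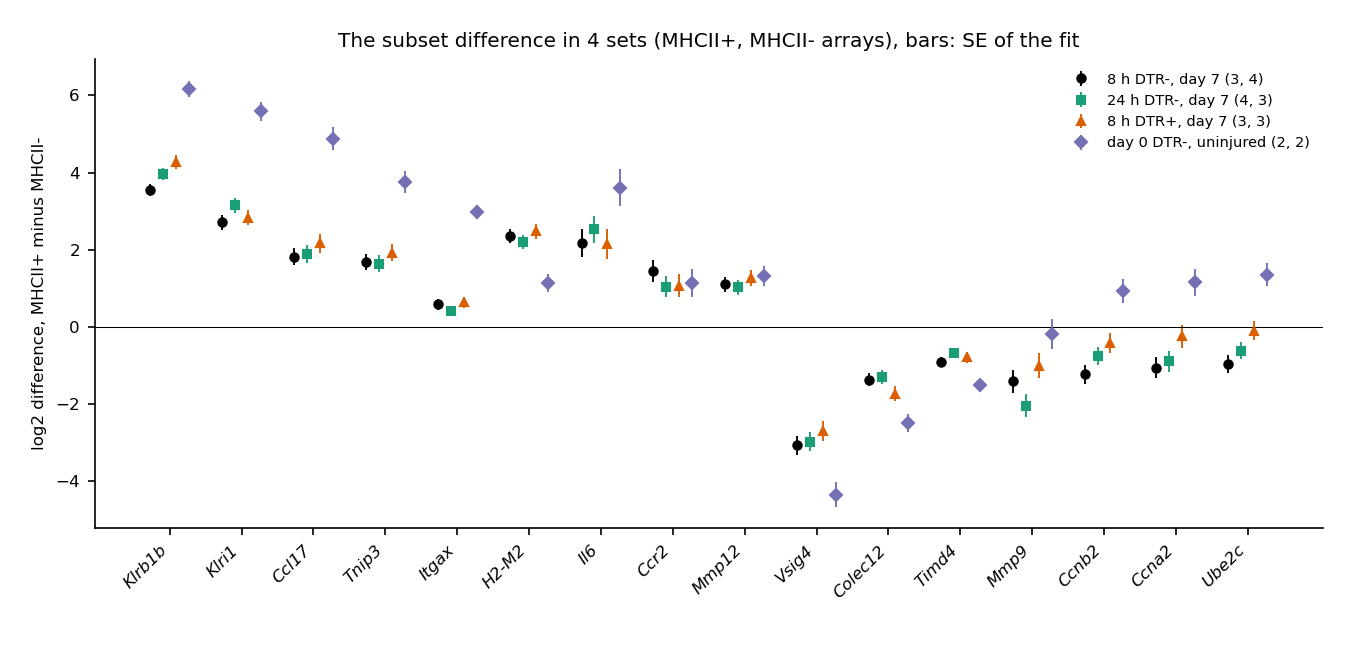
Log2 difference between MHCII+ and MHCII- macrophages, with its SE, of 16 genes in the 8 h DTR- set and the 24 h DTR-, 8 h DTR+ and day 0 sets. Klrb1b runs from 3.55 in the 8 h DTR- set to 6.17 at day 0, Vsig4 is below 0 in all 4 sets, and Ccnb2 is -1.23 in the 8 h DTR- set and 0.92 at day 0.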

How the data were processed

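The deposited table holds linear intensities of 45 Affymetrix Mouse Gene 1.0 ST arrays, which the authors computed by RMA in Affymetrix Power Tools (per the submitters' processing notes), with versions and settings not given in the sources used here. RMA corrects background, makes the arrays' distributions alike and summarises probes, so a shift common to all genes of an array is removed, and no call of detection per probe set was used here. Array medians ran from 174.72 to 203.68 (189.4 to 195.84 in the 7 arrays compared). From these intensities log2 was taken. GEO's platform annotation gave 1 symbol for 21425 of 24922 probe sets, several for 1399 (left out) and did not list 2098. Of the probe sets of a gene the brightest by mean over all arrays was kept (1673 left out), which gave 19752 genes, 19677 of them with the symbol updated through their Entrez identifier in RefSeq (GRCm38.p6).

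All 45 arrays entered a linear model with a term for each of the 18 groups, fitted in limma 3.58.1 (R 4.3.3) with 27 residual degrees of freedom and an intensity trend, and p-values were adjusted by Benjamini-Hochberg over the 11074 tested genes. Errors beside differences are the model's SE. The script was tested on simulated data. Figures were drawn with matplotlib 3.10.9 in Python 3.11.15.

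Same-numbered arrays deviated together from their subset's mean: the correlation over genes was 0.53, 0.48 and 0.58 for replicates 1, 2 and 3, so the numbers were taken as pairs, from the data and not from the labels. MHCII- replicate 5 had no partner, and the fit with the number as fixed terms takes its difference from the other 6 arrays. Alternatives were another filter or none, quantile normalization, an added constant of 32, means over probe sets, fewer arrays in the fit, array weights, no trend, the replicate block and leaving out each array.

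The genes, lists and tests were chosen with earlier results of these data known. Named were up to 15 non-overlapping genes of the largest change in each direction, up to 6 members of smallest p of each list, the class II list, up to 8 genes in each direction of a difference of differences, and a fixed set of macrophage genes; exceptions are marked in the text.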

Additional observations from a re-analysis of the deposited data

Results flagged for a closer look

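Among 103 genes checked, 2 had 1 MHCII- array far from the other three by Dixon's test, and both were at MHCII- replicate 5. Mest was at 7.7441 there, against 9.17 to 9.27 on the other MHCII- arrays, and Cnn3 at 8.163, against 8.998 to 9.15. Chance flags about 1 in 20 such groups, more than the 2 of 103 found here. None of the 39 lists was so placed by its mean log2 value.

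For 37 of the genes reported, the difference between subsets itself differed between the 8 h DTR- set on day 7 and uninjured muscle at day 0 (limma, adjusted over all genes), and the values here are the first minus the second. In the class II genes it was -0.69 for H2-Ab1, -1.18 for Ciita, -1.11 for H2-DMa, -1.26 for H2-Ob, -1.22 for H2-Oa and 0.73 for Ctss. H2-M2 had 1.20. In the receptors of the NK gene complex it was -2.62 for Klrb1b, -2.88 for Klri1, -1.745 for Klrk1, -2.32 for Cd226 and -1.96 for Klrd1. Chemokines and dendritic cell genes had -3.06 for Ccl17, -1.39 for Ccl22, -2.08 for Cxcl9, -1.33 for Flt3, -2.41 for Itgax, -1.55 for Dpp4 and -2.82 for Ccr7, and the values were -1.62 for Dcstamp and -2.07 for Tnip3. Genes lower in MHCII+ macrophages in both sets had values above 0, with 1.27 for Vsig4, 1.129 for Colec12, 0.97 for Tfec and 1.15 for Ccr3. The cell cycle genes had -2.15 for Ccnb2, -2.21 for Ccna2, -2.32 for Ube2c, -1.52 for Plk1, -1.69 for Kif20a, -1.49 for Foxm1, -0.82 for Aurka and -1.78 for Mki67. The rest were -1.63 for Lyz1, 0.75 for Il7r, -1.24 for F3 and -1.60 for Cnn3. The sets differ in injury, DT, age and the sort markers, and the part of the neutrophil transcripts on the day 0 MHCII- arrays was not tested.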

How the results depend on the processing

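None of the 91 genes reported with a difference turned its sign under any of the up to 18 alternatives. Of the 74 of them that passed, 40 passed under every alternative and 34 were lost under at least 1. The replicate numbers were taken as pairs from the data and not from the labels. The fit with the number as fixed terms gave 124 higher and 99 lower genes, with 194 of the 245 calls kept. Beyond the genes whose blocked value stands in the report, it also ended the calls of Peg3 (0.95 ± 0.26, adjusted p = 0.14 with the block), Actc1 (0.54 ± 0.15, 0.24) and Nes (0.59 ± 0.16, 0.16). Peg3, Actc1 and Nes were chosen after their values were seen. That fit changed no other call of a gene reported. A fit of the 7 arrays alone gave 126 higher and 62 lower genes, and the same 7 arrays with the block as a random term (correlation 0.61) gave 534 higher and 585 lower; that setting changes both the arrays and the block against the reported counts. It also called H2-Oa, Klra2, Klrd1, Cxcl9, Batf3, Ccr7, Chil3, Folr2, Lyve1, Cd209d, Cd209f, Cd209g, Mki67, Igf1, Slc40a1 and Sparc. The fit of the 7 arrays alone ended the calls of Tcim (adjusted p = 0.073), Adgrg1 (0.051), Cnn3 (0.077), Retnla, Plk1, Kif20a, Foxm1 and Aurka. The fit of the 13 arrays ended those of Tnfsf9 (0.12), C2 (0.092), Ccnb2 (0.073), Ccna2, Ube2c, Plk1, Kif20a, Foxm1, Aurka, Mgl2, Fcna, Lyz1, Il7r and Nes. Both fits ended those of Ccr2, Itgax, Cd209a, Cd209b, Ly6a2, Pdgfc, Chrna1, Ccr3, F3, Mest, Capn6, Peg3 and Actc1. The 13 arrays of the 8 h set gave 96 higher and 31 lower, and array quality weights 520 higher and 620 lower. Leaving out each of the 7 arrays in turn gave 85 to 163 higher and 46 to 94 lower. The number of genes that differ from the 24 h set was 0 under every alternative, and from the 8 h DTR+ set it was 0 except for 1 with no filter and 89 with array weights. From day 0 it was 2113 with array weights and 232 to 761 with single arrays left out. The causes were not tested. Of the alternatives, the 13-array fit has fewer arrays to estimate the spread. With 3 and 4 arrays small differences cannot be called, and dim genes have no measure of detection here.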
